A study of Mus musculus with 8 samples.

Results

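The genes described here are 7 effectors through which myeloid-derived suppressor cells (MDSCs) are held to restrain T cells: Arg1, Arg2, Nos2, Cd274, Il10, Tgfb1 and Il4ra. They were taken by gene symbol from the table of read counts, with no rule on their levels, and 6 of the 7 had a row among the 16160 genes of the table. Il10 had none and is not analysed here. Of the 6, 5 were abundant enough to be tested, among 13211 tested genes in all. Arg1 had too few reads for a test.

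RNA was sequenced from bone marrow monocytic cells of wild type C57BL/6 mice, sorted as CD11c-CD11b+Ly6G-SiglecF-Ly6Chi and divided by surface CD115, the receptor for colony stimulating factor 1. The mice either carried a tumor of EL4, a mouse T cell lymphoma line, taken 21 days after inoculation (EL4 TB mice), or were naive and tumor free. The 4 groups were therefore tCD115- and tCD115+ cells from EL4 TB mice, and nCD115- and nCD115+ cells from naive mice, with 2 libraries in each that the labels call biological replicates. The sources used here do not say whether the 2 libraries of a group, or the CD115- and CD115+ libraries of a host, came from the same animals or from pools. A p-value therefore measures the spread between these libraries only, and the TB samples describe 1 transplanted tumor model at 1 time.

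MDSCs are immature myeloid cells that expand in cancer. They are known to deplete L-arginine through arginase, to release nitric oxide through inducible nitric oxide synthase, to display PD-L1, and to secrete interleukin 10 and transforming growth factor β1. The interleukin 4 receptor α chain is read both as a marker of such cells and as the receptor through which interleukin 4 and interleukin 13 raise arginase.

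Counts per library summed to between 69692398 and 95353798 reads, the lowest being tCD115+ replicate 2. Csf1r, the gene of CD115, followed the sort within each host, at 283 and 490 CPM, that is reads scaled to a fixed library size, in tCD115-, 891 and 869 in tCD115+, against 825 and 728 in nCD115- and 1159 and 1332 in nCD115+. All 12 monocyte markers stood above 1 CPM in every group, with a summed level of 18677 to 22467 CPM in tCD115-, 27186 to 28067 in tCD115+, 29006 to 30929 in nCD115- and 31885 to 35945 in nCD115+. Genes used as markers of other cells were also read, although the sort gates out Ly6G+, SiglecF+ and CD11c+ cells, and where their transcripts came from was not tested. The 16 neutrophil markers summed to 72530 to 117898 CPM in tCD115- and 50689 to 66067 in nCD115-, against 2564 to 3119 in tCD115+ and 1463 to 1679 in nCD115+, and none of them was at 0 in any group. The 13 measured T and NK cell markers summed to 85.9 to 118 CPM in tCD115- and 58.5 to 68.5 in nCD115-, against 7.48 to 8.06 and 8.33 to 10.3 in the CD115+ groups, again with none at 0. In such bulk samples, fewer cells that express a gene and less of its RNA in each cell cannot be told apart.

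The levels of the 6 measured genes spanned the range of the transcriptome. In FPKM, fragments scaled to both transcript length and depth, which allow genes of different length to be compared, Tgfb1 was the highest in every library, at a group mean of 105 in tCD115-, 154 in tCD115+, 131 in nCD115- and 171 in nCD115+. It lay above 95.7% to 97.4% of the genes of the table. Il4ra came next, at a group mean FPKM of 29.8, 33.4, 19.5 and 22.0 in the same order. Cd274 stood between 1.05 and 1.66 and Arg2 between 0.278 and 0.685 in group mean FPKM, above 37.6% to 40.2% and 29.6% to 34.7% of the genes of the table. Nos2 and Arg1 were at or near 0, at 0.0419 FPKM or less in every library.

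**Figure D1:**
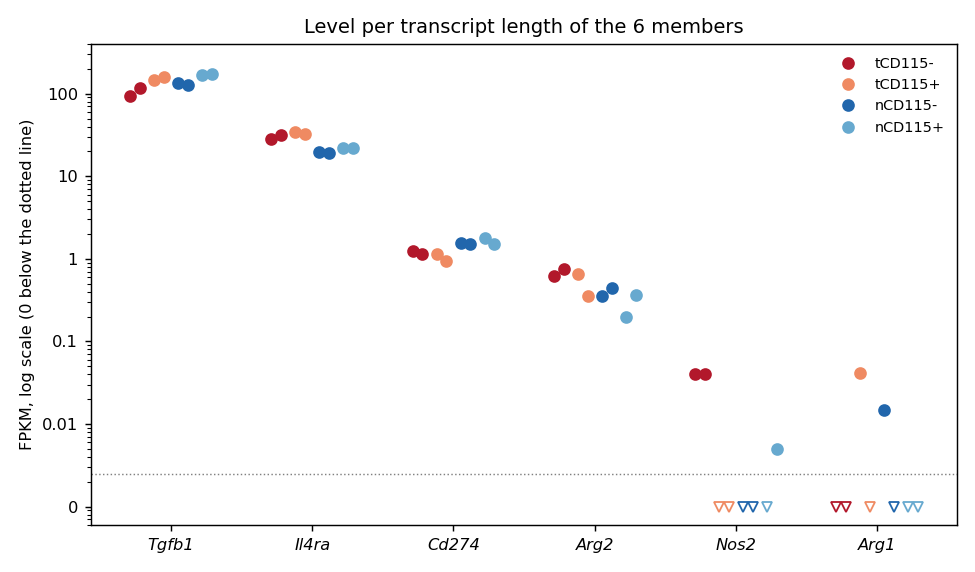
FPKM of the 6 measured effector genes on a log scale, 1 point per library, colored by group, with libraries at 0 drawn as open triangles below the dotted line. Tgfb1 and Il4ra lie far above the other genes in all 8 libraries, and Nos2 and Arg1 are at 0 in most of them.

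Each of the 5 tested genes was compared between the subsets within a host, and between the hosts within a subset. A gene was called at an adjusted p under 0.05 in edgeR's quasi-likelihood test, adjusted over all tested genes, together with a fold of at least 2. By that rule 1 of the 5, Nos2, was called between tCD115- and tCD115+, where 12.3% of all tested genes were. Nos2 passed the low-count filter only through tCD115- and so had to differ to be tested, and its call is not read against that share. None was called between nCD115- and nCD115+ (6.21% of all tested genes), between the 2 CD115- groups (3.29%) or between the 2 CD115+ groups (2.6%). At an unadjusted p under 0.05 the last 3 comparisons held 1, 3 and 2 of the 5, next to 32.6%, 31.7% and 29.3% of all tested genes. The 3 between the CD115- groups include Nos2, which is not read against that share for the same reason. DESeq2 called none in the last 3 comparisons either, but it gave Nos2 no adjusted p between the hosts in either subset. With limma-voom 1 was called, Nos2 in tCD115- against nCD115-. The 4 comparisons share libraries in pairs, so they are not independent of each other.

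At an edgeR adjusted p under 0.05 and any fold, 2 of the 5, Nos2 and Tgfb1, passed between tCD115- and tCD115+, next to 37.6% of all tested genes. Nos2 is again not read against that share. None passed between nCD115- and nCD115+ (15%), 1 between the hosts in CD115- cells (9.69%) and 2 between the hosts in CD115+ cells (10.3%). In DESeq2, Tgfb1 also passed between the naive subsets, at an adjusted p of 0.0398. With 2 libraries a group, separation of the groups is common: the 2 values of one group lay wholly above or below those of the other for 71.5%, 66.8%, 58.3% and 67.4% of all tested genes in these comparisons. The test of whether the difference between the subsets itself differed between the hosts called 0% of all tested genes in edgeR and 0 in limma-voom, with 751 and 760 of them at an unadjusted p under 0.05, and 70 in DESeq2. None of the 5 effector genes was called by it with edgeR, and Nos2 alone had an unadjusted p under 0.05. As Nos2 entered the test only through its reads in tCD115-, that value is not read against those counts.

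**Figure D2:**
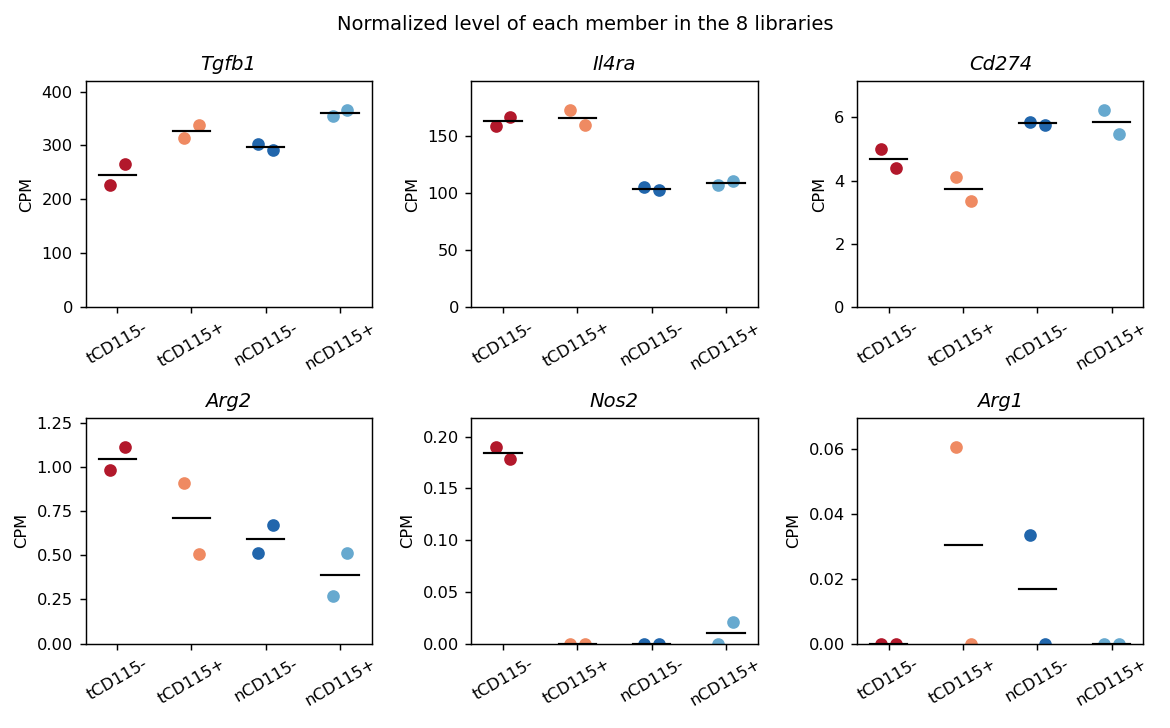
CPM of each measured effector gene in the 8 libraries, 1 point per library with the group mean as a bar, on linear axes that start at 0. Il4ra separates the hosts, Tgfb1 is lower in tCD115- than in tCD115+, and reads of Nos2 come almost wholly from the 2 tCD115- libraries.

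Arg1 encodes the cytosolic arginase that splits L-arginine into ornithine and urea. The gene (chr10:24915207-24927470, minus strand, GRCm38.p6) had 6 reads in tCD115+ replicate 1, 3 in nCD115- replicate 1 and 0 in the other 6 libraries, among them both tCD115- libraries. With a floor of 3 reads for a count of 0, levels up to 0.0356 and 0.0334 CPM were possible in the tCD115- libraries, by counting error only. No difference in Arg1 was detectable at this depth.

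Arg2 encodes the mitochondrial arginase. It had 83 and 100 reads in tCD115-, 90 and 37 in tCD115+, against 46 and 56 in nCD115- and 24 and 50 in nCD115+. In CPM this was 1.05 ± 0.0907 (SD, n = 2) in tCD115-, 0.709 ± 0.283 in tCD115+, 0.594 ± 0.110 in nCD115- and 0.391 ± 0.171 in nCD115+. The tCD115- libraries were the 2 highest of the 8, while neighboring groups in the order below them overlapped or nearly touched.

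The log2 fold change of Arg2 in CD115- over CD115+ cells was 0.55 (SE 0.41) in EL4 TB mice, next to 0.59 (SE 0.43) in naive mice, and that in EL4 TB over naive mice was 0.82 (SE 0.41) in CD115- and 0.86 (SE 0.43) in CD115+ cells. None of these differences passed the test (edgeR adjusted p = 0.323, 0.377, 0.215 and 0.226). Their 95% intervals ran from -0.40 to 1.504, from -0.41 to 1.60, from -0.14 to 1.78 and from -0.13 to 1.86, so that neither no change nor a change above 2-fold lies outside any of them. The 2 tCD115+ libraries lay further apart than counting error, at 90 reads (exact Poisson 95% interval 72.4 to 110.6) and 37 reads (26.1 to 51.0) from library totals of 95353798 and 69692398. The last 285 bases of Arg2 (chr12:79130788-79156301, plus strand, GRCm38.p6) overlap Vti1b on the other strand, which had 3093 to 4289 reads a library, and a further gene on that strand, Gm48780, overlaps 997 bases of Arg2. The sources used here do not say how counting treated strand, and the part of such reads in the Arg2 counts was not tested.

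In tCD115- against tCD115+, 8.36% of all tested genes were called higher and 3.97% lower, with a median log2 fold change of -0.05. The other genes of arginine transport and metabolism had a median of -0.17 there, with 0 of 13 tested called higher and 2 called lower. They were Slc7a2, a cationic amino acid transporter of macrophages, at 0.712 and 0.556 CPM in tCD115- against 1.75 and 1.40 in tCD115+ (log2 fold change -1.32, SE 0.26, edgeR adjusted p = 0.00705), and Ass1, an enzyme of arginine synthesis from citrulline, at 1.51 and 1.73 against 3.64 and 4.29 (-1.29, SE 0.21, adjusted p = 0.00318). Neither gene overlapped between these groups, and nor did 71.5% of all tested genes. The count was 1 without tCD115+ replicate 1. In the other 3 comparisons 0 of the 13 were called, with medians of -0.20 between the naive subsets, 0.01 between the hosts in CD115- cells and 0.30 in CD115+ cells.

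Nos2 encodes inducible nitric oxide synthase, which makes nitric oxide from L-arginine, at chr11:78920787-78960226 on the plus strand. It had 16 reads in each tCD115- library, 0 in both tCD115+ and both nCD115- libraries, and 0 and 2 in nCD115+. The tCD115- libraries were thus the highest 2 of the 8, at 0.190 and 0.178 CPM, although 16 reads carry an exact Poisson 95% interval of 9.15 to 26.0 and the level of 0.0399 FPKM is low.

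The summed reads of Nos2 in tCD115- were set against a floor of 3 reads over a group, scaled as the CPM values. Their ratio to that floor was 10.5 for tCD115+ and 10.6 for nCD115-. Those ratios take the 32 reads of tCD115- as exact, although that sum has an exact Poisson interval of 21.9 to 45.2. For a group with 0 reads the interval reaches 3.69. The ratios to the floor are therefore not lower limits of the fold. Against nCD115+ the ratio of the summed reads was 17.2, with a counting interval of 4.38 to 148. By library totals alone the ratios for tCD115+, nCD115- and nCD115+ were 9.53, 10.3 and 15.4. The difference from tCD115+ was called (edgeR adjusted p = 0.0263) and that from nCD115- was not (adjusted p = 0.0593). Its call between tCD115- and tCD115+ was lost without any 1 of the 4 libraries compared (adjusted p of 0.0731 and 0.0527 without tCD115- replicate 1 and 2, and 0.110 and 0.0932 without tCD115+ replicate 1 and 2), and with no filter.

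Sums of some markers of other cells were high in tCD115-, as Nos2 was, but not in that group alone. The neutrophil and T and NK cell sums given above were high in tCD115-, where Nos2 was found, and also in nCD115-, where it had 0 reads. Markers of basophils and mast cells summed to 155 to 204 CPM in tCD115-, 7.07 to 8.77 in tCD115+, 120 to 164 in nCD115- and 14.4 to 15.9 in nCD115+, with 5 of 8 above 1 CPM in both CD115- groups and none at 0. Eosinophil markers summed to 7.80 to 12.3, 1.68 to 2.23, 6.79 to 8.96 and 1.60 to 1.61 CPM in the same order, with 1 of 8 above 1 CPM in each group and 2 at 0 in tCD115+. The sort gates out Ly6G+ and SiglecF+ cells, which include neutrophils and eosinophils, and the part of any such cells in the Nos2 reads was not tested.

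Genes of nitric oxide synthesis and induction other than Nos2 gave 0 of 12 tested called higher and 1 called lower in tCD115- relative to tCD115+. There 8.36% of all tested genes were called higher and 3.97% lower. In the other 3 comparisons 0 of the 12 were called. Their median log2 fold change was -0.48 in EL4 TB mice and -0.24 in naive mice between the subsets, and -0.38 and -0.10 between the hosts in CD115- and CD115+ cells. The 1 called was Nostrin, which encodes a trafficking partner of endothelial nitric oxide synthase, at 4.89 and 6.40 CPM against 13.1 and 12.1 (log2 fold change -1.16, SE 0.18, edgeR adjusted p = 0.00296), and the count was 0 without tCD115- replicate 1 and 3 without tCD115- replicate 2. Ifngr1, the ligand-binding chain of the receptor for interferon γ, an inducer of Nos2, stood at 280 and 301 CPM in tCD115- and 413 and 391 in tCD115+. It was lower by an adjusted p of 0.00534 in edgeR but by less than 2-fold (log2 fold change -0.47, SE 0.09). Nfkb1, an NF-κB subunit, stood at 232 and 285 against 320 and 344 CPM (-0.36, SE 0.12, edgeR adjusted p = 0.0467).

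Cd274 encodes PD-L1, the ligand that engages PD-1 on T cells. It lies at chr19:29362107-29388095 on the plus strand of GRCm38.p6, with an antisense RNA gene, AC119228.1, across 11055 bases of it. Promoter sequence was found in the RefSeq table of GRCm38.p6 for 3 of the 7 genes, Cd274, Tgfb1 and Il4ra. The 250 bases upstream of each start are shown where the gene is described, to set the sequence beside the levels, and 5 motifs were searched in them on both strands: the STAT site TTCNNNGAA, the interferon regulatory factor core site AANNGAAA, the GC box GGGCGG, the TATA box TATAAA and the octamer-like ATGNAAAT, which was chosen after the sequences had been seen. Of 32851 RefSeq promoter windows of that length, 7.02%, 21.3%, 32.7%, 12.4% and 5.03% held them, in that order. That of Cd274 is chr19:29367188-29367437, with its GC box in capitals:
Cd274: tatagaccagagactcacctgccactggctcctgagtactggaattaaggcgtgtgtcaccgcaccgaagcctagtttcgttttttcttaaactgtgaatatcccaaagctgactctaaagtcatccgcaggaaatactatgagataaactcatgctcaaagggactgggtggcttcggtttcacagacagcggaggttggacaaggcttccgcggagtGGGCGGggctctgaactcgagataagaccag
It held 1 GC box, 31 bases before the start, and 1 interferon regulatory factor core site at 175 bases, and its GC content was 50.4% against a median of 52.4%. The RefSeq start used lies inside the annotated gene span. A match is a description of letters and says nothing of a bound factor.

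Cd274 had 421 and 395 reads in tCD115-, 408 and 243 in tCD115+, against 523 and 481 in nCD115- and 553 and 535 in nCD115+. Its levels were 4.70 ± 0.423 CPM (SD, n = 2), 3.73 ± 0.552, 5.81 ± 0.0648 and 5.85 ± 0.527 in the same order. All 4 libraries of EL4 TB mice lay below all 4 of naive mice, and the 2 naive groups overlapped. What share of all tested genes separates the hosts in this way was not counted. Within CD115- cells alone 58.3% of all tested genes separated the hosts, and within CD115+ cells alone 67.4% did.

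Cd274 was lower in tCD115+ than in nCD115+ by a log2 fold change of -0.64 (SE 0.16, 95% interval -1.01 to -0.27, edgeR adjusted p = 0.0451), a ratio of 0.640 that is short of the 2-fold rule. Without any 1 of those 4 libraries, or either nCD115- library, the adjusted p rose above 0.05, up to 0.265 over all alternatives, and it was 0.118 with the replicate number as a block within host. In CD115- cells the difference between hosts was -0.31 (95% interval -0.68 to 0.06, adjusted p = 0.222). Between the subsets the values were 0.33 (-0.04 to 0.70, adjusted p = 0.145) in EL4 TB mice and -0.0075 (-0.37 to 0.36, adjusted p = 0.978) in naive mice. The 2 host differences were not shown to differ from each other (interaction 0.34, 95% interval -0.18 to 0.86, edgeR adjusted p = 0.846).

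Dendritic cell markers moved with host as Cd274 did. Their sum was 111 to 131 CPM in tCD115- and 136 to 182 in tCD115+, against 281 to 376 in nCD115- and 538 to 566 in nCD115+, with 8, 8, 10 and 9 of 12 above 1 CPM and none at 0. B cell markers summed to 10.4 to 15.7 and 11.7 to 15.2 CPM in the EL4 TB groups against 26.5 to 31.3 and 28.7 to 30.4 in the naive groups, with none of 10 at 0. Erythroid markers summed to 2.42 to 3.58 and 1.96 to 2.20 against 8.29 to 20.9 and 6.26 to 9.62 CPM, with 1 or 2 of 10 at 0 in each group. Macrophage markers summed to 283 to 332, 187 to 202, 365 to 390 and 277 to 326 CPM in tCD115-, tCD115+, nCD115- and nCD115+, with none of the 10 measured at 0. CD11c+ cells, which include dendritic cells, were gated out in the sort, and the part of any such cells in the Cd274 values was not tested.

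Other checkpoint ligands and receptors gave 1 of 16 tested called higher in tCD115- than in tCD115+, where 12.3% of all tested genes were called. They also gave 1 called lower in nCD115- than in nCD115+, where 6.21% of all were called, and 0 between the hosts. The first was Pdcd1lg2, which encodes PD-L2 and is named here after its values were seen because its mean of 0.18 CPM is low. It stood at 0.356 and 0.390 CPM in tCD115-, 0.0606 and 0 in tCD115+, against 0.179 and 0.216 in nCD115- and 0.157 and 0.0716 in nCD115+ (edgeR adjusted p = 0.0217 between the EL4 TB subsets). The count in EL4 TB mice was 2 and 3 without tCD115- replicate 1 and 2, and 0 without tCD115+ replicate 2. The second was Nectin2, a ligand of the lymphocyte receptor CD226, at 1.31 and 1.18 CPM in nCD115- against 3.28 and 1.90 in nCD115+ (log2 fold change -1.06, SE 0.29, adjusted p = 0.0451). The count for the naive subsets fell to 0 without either nCD115- library, either tCD115+ library or nCD115+ replicate 1. The most abundant of the list, Vsir, which encodes VISTA, and Sirpa, the receptor for CD47, stood at 856 to 1049 and 646 to 1090 CPM and were called nowhere. The median of the list was -0.24, -0.16, -0.25 and -0.17 in the 4 comparisons, against -0.05, -0.01, 0.00 and 0.02 over all tested genes.

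With Il10 not analysed, the genes through which its product acts were read instead. Of 9 genes of interleukin 10 receptor signaling, 0 were called between the subsets in either host. Relative to naive mice, tCD115- cells had 1 called higher and 2 called lower, and tCD115+ cells had 1 called higher. Between the hosts 3.29% of all tested genes were called in CD115- cells and 2.6% in CD115+ cells. Socs3, the feedback inhibitor induced by STAT3, stood at 16.3 and 31.3 CPM in tCD115- and 37.9 and 36.5 in tCD115+, against 10.4 and 9.13 in nCD115- and 10.5 and 13.3 in nCD115+. It was higher in EL4 TB mice by 1.29 (SE 0.28, edgeR adjusted p = 0.0330) and 1.65 (SE 0.28, adjusted p = 0.0178) on the log2 scale in CD115- and CD115+ cells.

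Il10ra, the ligand-binding chain of the receptor, and Maf, a factor that drives Il10, were lower in tCD115- than in nCD115-. Il10ra stood at 70.3 and 120 CPM against 241 and 184 (log2 fold change -1.16, SE 0.23, edgeR adjusted p = 0.0291), and Maf at 3.11 and 3.91 against 9.10 and 7.17 (-1.21, SE 0.20, adjusted p = 0.0179). Il10ra was also lower in tCD115- than in tCD115+, which had 192 and 187 CPM. That log2 fold change of -0.99 (SE 0.23, edgeR adjusted p = 0.0141) fell just short of the 2-fold rule. Between the naive subsets it was -0.52 (SE 0.23, edgeR adjusted p = 0.166). The count of 3 in CD115- cells fell to 0 without nCD115- replicate 1 and to 1 without nCD115- replicate 2 or without any 1 CD115+ library, and the count of 1 in CD115+ cells was 0 once any of the 4 libraries compared was left out. List medians were -0.32, -0.22, -0.06 and -0.03 in the 4 comparisons.

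Tgfb1 encodes transforming growth factor β1, which is secreted in a latent form and restrains T cells once freed. It lies at chr7:25687002-25705077 on the plus strand, and the 250 bases before its start are chr7:25686752-25687001, with the GC boxes in capitals, written CCGCCC where they lie on the minus strand:
Tgfb1: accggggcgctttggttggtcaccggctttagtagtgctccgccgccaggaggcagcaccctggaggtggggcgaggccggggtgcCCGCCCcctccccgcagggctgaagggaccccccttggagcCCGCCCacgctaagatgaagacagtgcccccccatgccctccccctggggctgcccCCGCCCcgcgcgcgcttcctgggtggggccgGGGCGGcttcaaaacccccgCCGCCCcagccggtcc
This window held 5 GC boxes, 164, 123, 67, 36 and 16 bases before the start, and none of the other 4 motifs. Its GC content of 75.2% was above that of 96.1% of the promoter windows.

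Tgfb1 was the most abundant of the effectors, at 227 and 265 CPM in tCD115-, 315 and 338 in tCD115+, against 304 and 292 in nCD115- and 355 and 365 in nCD115+. Group means were 245.9 ± 27.1 (SD, n = 2), 326 ± 16.2, 298 ± 8.41 and 359.9 ± 7.25 CPM. The order of the groups was tCD115-, nCD115-, tCD115+ and nCD115+ from lowest to highest, and no 2 groups overlapped. How many of all tested genes separate every group was not counted, while 58.3% to 71.5% of them separated the groups within a single comparison.

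Tgfb1 was lower in tCD115- than in tCD115+ by a log2 fold change of -0.41 (SE 0.09, 95% interval -0.62 to -0.19, edgeR adjusted p = 0.0127), a ratio of 0.754 that is short of the 2-fold rule. Between the naive subsets the difference was -0.27 (-0.49 to -0.06, adjusted p = 0.0877, with 5 of 17 alternatives under 0.05), and between the hosts -0.28 in CD115- cells (-0.49 to -0.06, adjusted p = 0.0913) and -0.14 in CD115+ cells (-0.36 to 0.07, adjusted p = 0.350). Thus neighbors in that order, nCD115- above tCD115- and nCD115+ above tCD115+, were not told apart by that fit. The first pair was, without tCD115- replicate 2 (adjusted p = 0.00763). Between the naive subsets the adjusted p was 0.0143 and 0.0146 without tCD115- replicate 1 and 2, 0.0398 in DESeq2, 0.0483 by library totals and 0.0315 with the 4 libraries alone. The middle pair, nCD115- and tCD115+, was not compared. The subset difference was not shown to differ between the hosts (interaction -0.13, 95% interval -0.44 to 0.17, edgeR adjusted p = 0.887). Without either tCD115+ library the adjusted p between tCD115- and tCD115+ rose to as much as 0.0954. The neutrophil, T and NK cell and monocyte sums and Csf1r also separated the subsets, as given above, and their part in the Tgfb1 values was not tested.

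**Figure D3:**
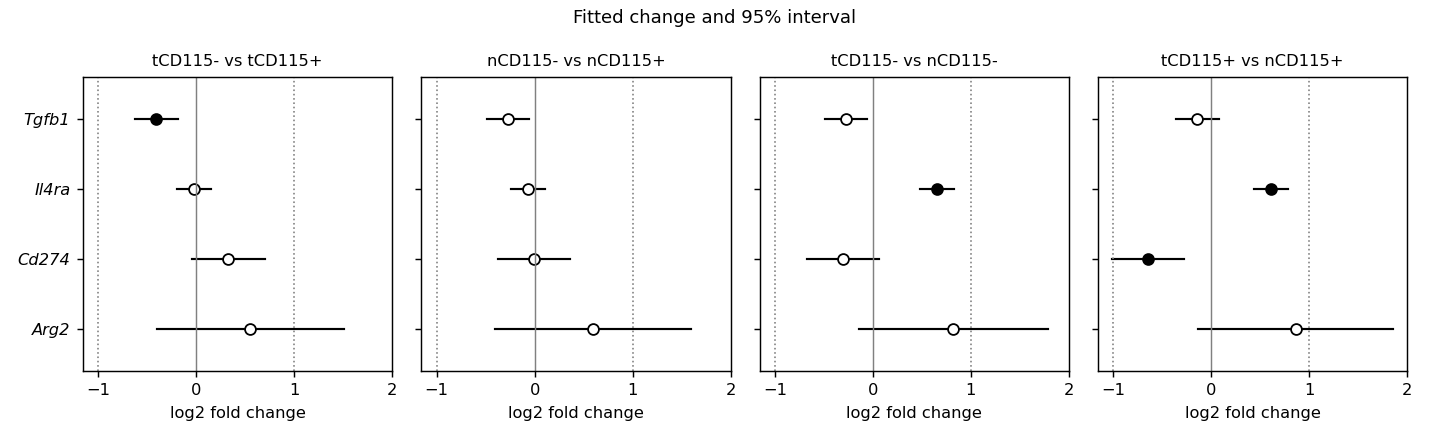
Fitted log2 fold change of 4 effector genes in the 4 comparisons, first group over second, with 95% intervals as lines, filled points at an edgeR adjusted p under 0.05 and dotted lines at 2-fold. Il4ra is filled in both comparisons of the hosts near 0.65 and 0.61, Tgfb1 between the EL4 TB subsets at -0.41 and Cd274 between the CD115+ groups at -0.64, each point inside the dotted lines, while the intervals of Arg2 are widest. Nos2 is left out because 2 or more of its groups have no reads.

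Of 24 genes of transforming growth factor β activation and signaling, 17 were tested. In tCD115- against tCD115+, 0 were called higher and 2 lower, in nCD115- against nCD115+ 1 was called lower, and in tCD115+ against nCD115+ 1 was called lower. Over all tested genes 3.97%, 0.484% and 1.66% were called lower in these comparisons. Ltbp3, a latent TGF-β binding protein, was lower in CD115- cells of both hosts, at 0.427 and 0.356 CPM in tCD115- against 1.65 and 1.17 in tCD115+ (log2 fold change -1.85, SE 0.31, edgeR adjusted p = 0.00377), and at 0.874 and 0.624 in nCD115- against 1.77 and 1.98 in nCD115+ (-1.32, SE 0.29, adjusted p = 0.0228). Thbs1, whose product frees latent TGF-β, stood at 22.1 and 27.0 CPM in tCD115- against 69.6 and 33.5 in tCD115+ (-1.07, SE 0.31, adjusted p = 0.0298), values that lie far apart between the 2 tCD115+ libraries.

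The receptor genes were called nowhere, apart from the coreceptor gene Tgfbr3. Tgfbr2 stood at 30.3 and 35.6 CPM in tCD115- and 46.4 and 40.9 in tCD115+, against 55.1 and 53.2 in nCD115- and 64.9 and 77.4 in nCD115+, and was lower in EL4 TB mice by less than 2-fold in both subsets (log2 fold change -0.72 and -0.70, SE 0.12 each, edgeR adjusted p = 0.0183 and 0.0181). Tgfbr2 and Tgfbr3 are named here after their values were seen. Tgfbr3 stood at 0.465 and 0.399 CPM in tCD115+ against 1.26 and 1.29 in nCD115+ (-1.55, SE 0.31, adjusted p = 0.0262). The count in EL4 TB mice was 1 without tCD115- replicate 1, tCD115+ replicate 1 or either nCD115- library, that in naive mice was 0 without nCD115- replicate 2 or either nCD115+ library, and that between the CD115+ groups was 0 without any of its own libraries or nCD115- replicate 1. The medians of the list were -0.08, -0.08, -0.23 and -0.17.

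Il4ra encodes the α chain shared by the receptors for interleukin 4 and interleukin 13. It lies at chr7:125552271-125579474 on the plus strand, with 1342 bases of it under an antisense gene, Gm44876. The 250 bases before its start are chr7:125552021-125552270, with the octamer-like matches in capitals:
Il4ra: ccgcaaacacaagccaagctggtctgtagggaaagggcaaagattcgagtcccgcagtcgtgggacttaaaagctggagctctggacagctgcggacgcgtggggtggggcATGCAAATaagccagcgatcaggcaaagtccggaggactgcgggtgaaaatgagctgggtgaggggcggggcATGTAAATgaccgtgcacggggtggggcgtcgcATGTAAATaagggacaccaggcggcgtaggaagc
The window held 3 matches to ATGNAAAT, 139, 67 and 34 bases before the start, and 12 of the 32851 promoter windows held 3 or more. That pattern was chosen after the sequences had been seen, so this count cannot show how unusual the window is. The Il4ra window also had 1 GC box at 76 bases, no match to the other motifs, and a GC content of 59.6%, above that of 71.1% of the windows.

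Il4ra had 13426 and 15031 reads in tCD115-, 17078 and 11609 in tCD115+, against 9366 and 8559 in nCD115- and 9493 and 10827 in nCD115+. Scaled to depth these were 163 ± 5.66 CPM (SD, n = 2), 166 ± 9.12, 104 ± 1.63 and 109 ± 2.83. All 4 libraries of EL4 TB mice, at 159 to 173 CPM, lay above all 4 of naive mice, at 103 to 111 CPM. As for Cd274, the share of all tested genes with such a separation was not counted, and the shares within each subset alone are given there.

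Il4ra was 1.57-fold higher in tCD115- than in nCD115- (log2 fold change 0.65, SE 0.07, 95% interval 0.48 to 0.83, edgeR adjusted p = 0.00667) and 1.53-fold higher in tCD115+ than in nCD115+ (0.61, SE 0.07, 0.44 to 0.78, adjusted p = 0.00850). Both intervals lie below the 2-fold rule. Between the subsets the difference was -0.025 (-0.20 to 0.15, adjusted p = 0.816) in EL4 TB mice and -0.067 (-0.24 to 0.10, adjusted p = 0.563) in naive mice, so that the 2 groups of a host, which are neighbors in the order of levels, were not told apart. The interaction was 0.042 (95% interval -0.20 to 0.28, edgeR adjusted p = 0.964).

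The adjusted p of Il4ra between tCD115- and nCD115- rose above 0.05 without nCD115- replicate 1, and that between tCD115+ and nCD115+ without any of its own 4 libraries, up to 0.0785 and 0.0845 over all alternatives. With the replicate number as a block within host the latter was 0.0501. The neutrophil sums given above moved with host as Il4ra did, higher in EL4 TB mice in both subsets. Of the 16 neutrophil markers, 4 were called higher between the hosts in each subset. The dendritic cell, B cell and erythroid sums moved the other way with host. The part of any of these cells in the Il4ra values was not tested.

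Of 13 tested genes of interleukin 4 receptor signaling and its targets, tCD115- cells had 3 called higher and 1 called lower relative to tCD115+, and nCD115- cells had 2 called higher and 1 called lower relative to nCD115+. Over all tested genes 12.3% and 6.21% were called in these comparisons. Mgl2, a macrophage lectin, stood at 32.9 and 21.6 CPM in tCD115- against 4.26 and 5.30 in tCD115+ (log2 fold change 2.51, SE 0.26, edgeR adjusted p = 0.000466) and at 18.4 and 24.5 in nCD115- against 5.31 and 3.92 in nCD115+ (2.22, SE 0.26, adjusted p = 0.00121). Chil3, which encodes the chitinase-like protein Ym1, was higher by 1.61 and 1.85 (SE 0.25 each, adjusted p = 0.00288 and 0.00273). The neutrophil sums given above were also higher in CD115- cells of both hosts. Their part in the Mgl2 and Chil3 values was not tested. Socs1, an inhibitor of JAK kinases, was called higher in tCD115- cells, at 3.51 and 2.99 against 1.39 and 1.83 CPM (1.02, SE 0.21, adjusted p = 0.00814).

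Between the hosts, most calls over all tested genes were of lower ones, at 0.855% higher and 2.43% lower in CD115- cells and 0.939% higher and 1.66% lower in CD115+ cells. From this list, in tCD115- against nCD115-, 1 was called higher and 3 lower, and in tCD115+ against nCD115+, 0 higher and 3 lower. Irf4, a transcription factor of alternative activation, stood at 4.59 and 7.65 CPM in tCD115- and 12.5 and 15.4 in tCD115+, against 23.0 and 21.3 in nCD115- and 38.5 and 44.7 in nCD115+. It was lower in EL4 TB mice by a log2 fold change of -1.86 (SE 0.23, edgeR adjusted p = 0.00852) in CD115- and -1.58 (SE 0.22, adjusted p = 0.0117) in CD115+ cells, and lower in tCD115- than in tCD115+ (-1.18, adjusted p = 0.00623).

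Mrc1, the mannose receptor, stood at 2.43 and 2.47 CPM in tCD115- and 4.75 and 4.81 in tCD115+, against 7.03 and 5.34 in nCD115- and 13.8 and 14.2 in nCD115+. Its differences between the hosts were -1.33 (SE 0.16, edgeR adjusted p = 0.00752) and -1.55 (SE 0.15, adjusted p = 0.00416), and it was lower in nCD115- than in nCD115+ (-1.18, adjusted p = 0.00180). Pparg, a nuclear receptor of lipid metabolism, was lower by -1.44 and -1.42 (SE 0.28 and 0.27, adjusted p = 0.0280 and 0.0244). The 1 called higher was Jak3, a kinase of the common γ chain, at 103 and 105 CPM in tCD115- against 41.3 and 46.4 in nCD115- (1.25, SE 0.09, adjusted p = 0.00241).

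Socs1, Jak3 and Pparg are named after their values were seen. The count of 3 between the CD115+ groups fell to 0 or 1 without any 1 of those 4 libraries, the count of 4 between the CD115- groups to 2 without nCD115- replicate 1, and the count of 4 between the EL4 TB subsets to 2 without tCD115- replicate 1. Stat6, the transducer of the receptor, stood between 269 and 413 CPM in all libraries and was not called in any of the 4 comparisons. The dendritic cell markers, which were lower in EL4 TB mice, moved with Irf4, Mrc1 and Pparg, and the part of any dendritic cells left by the CD11c- gate was not tested. List medians were -0.23, 0.03, -0.23 and -0.12.

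Other genes reported to take part in suppression by MDSCs were read beside the effectors. Of 17 tested, tCD115- cells had 8 called higher and 1 called lower relative to tCD115+, and nCD115- cells had 7 called higher and 0 called lower relative to nCD115+, with medians of 1.10 and 1.16. Over all tested genes 8.36% were called higher and 3.97% lower between the EL4 TB subsets, and 5.73% higher and 0.484% lower between the naive subsets. The list was chosen with earlier results of these data known, so its counts are no test against those shares. S100a9 and S100a8, which encode the calprotectin subunits, were higher by 6.58 (SE 0.44) and 5.73 (SE 0.38) on the log2 scale in EL4 TB mice and by 6.97 (SE 0.45) and 6.48 (SE 0.40) in naive mice, with edgeR adjusted p between 6.3e-05 and 7.6e-05. Both are also among the neutrophil markers, whose sums differ in the same direction. Vegfa, the vascular growth factor, stood at 64.6 and 46.9 CPM in tCD115- against 0.768 and 0.591 in tCD115+, and at 33.1 and 44.1 in nCD115- against 0.888 and 0.726 in nCD115+ (log2 fold change 6.34, SE 0.26, and 5.58, SE 0.25, edgeR adjusted p = 1.7e-05 and 2.3e-05).

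Slc7a11, the cystine transporter that limits cysteine for T cells, stood at 2.65 and 1.75 CPM in tCD115-, 0.435 and 0.413 in tCD115+, against 0.784 and 1.40 in nCD115- and 0.349 and 0.266 in nCD115+ (log2 fold change 2.37, SE 0.38, edgeR adjusted p = 0.00325 in EL4 TB mice, and 1.83, SE 0.39, adjusted p = 0.0198 in naive mice). Between the hosts 0 of the 17 were called in CD115- cells, with a median of 0.00, and 1, S100a8, was called higher in tCD115+ than in nCD115+ (1.53, SE 0.32, adjusted p = 0.0299), a call lost without any of its own 4 libraries or either nCD115- library. Ly6G+ cells were gated out in the sort, and the part of any neutrophils in these differences was not tested.

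Of 14 transcription factors of MDSC programs, tCD115- cells had 1 called higher and 2 called lower relative to tCD115+. There 8.36% of all tested genes were called higher and 3.97% lower. In nCD115- cells 1 was called higher relative to nCD115+, next to 5.73% of all tested genes, and 0 were called between the hosts. Cebpe, a granulocyte factor and neutrophil marker, stood at 418 and 289 CPM in tCD115- against 11.1 and 10.8 in tCD115+, and at 197 and 280 in nCD115- against 9.95 and 10.4 in nCD115+ (log2 fold change 5.01, SE 0.24, edgeR adjusted p = 1.8e-05, and 4.55, SE 0.23, adjusted p = 2.9e-05). Irf8 and Klf4, which drive monocyte fate and are among the monocyte markers, were lower in tCD115- than in tCD115+ by -1.13 (SE 0.19, adjusted p = 0.00418) and -1.15 (SE 0.22, adjusted p = 0.00654). The count of 3 was 1 without tCD115- replicate 1. List medians were -0.14, -0.06, -0.13 and -0.01.

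**Figure D4:**
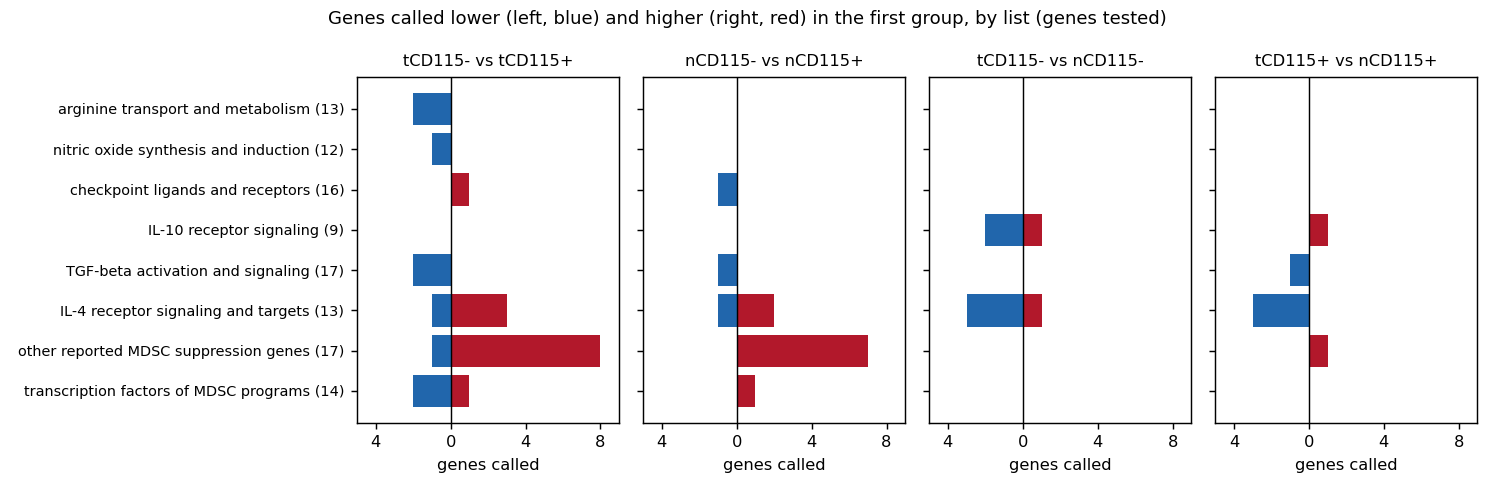
Number of genes called lower (blue, left) and higher (red, right) in the first group of each comparison, for 8 lists related to the effector genes, with the number of genes tested in brackets. The longest bars, 8 and 7 genes higher in CD115- cells, belong to the other reported suppression genes, and the lists around the effectors themselves have at most 3 genes on either side. The lists were chosen with earlier results of these data known.

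The effector genes did not share 1 pattern over the 8 libraries. Pearson's r of log2 CPM between them was -0.84 for Cd274 and Il4ra, -0.80 for Tgfb1 and Nos2, -0.76 for Tgfb1 and Arg2, 0.69 for Arg2 and Il4ra and 0.68 for Arg2 and Nos2. These values describe 8 libraries that fall into 4 groups and share their depth, and are not tests. Cd274 and Il4ra are the pair in which the hosts separate in opposite directions.

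Among 10901 tested genes that averaged 1 CPM or more, those most like each effector by the same measure were Pim1 (r = 0.990), Spint1 (0.988) and Tgm1 (0.984) for Il4ra, and Prkag2 (0.998), D3Ertd254e (0.997) and Ly9 (0.996) for Tgfb1. For Cd274 they were Pabpc1l (0.970), Inpp4b (0.965) and Toporsos (0.963). Arg2 was nearest to Mtus1 (0.959), 2700049A03Rik (0.958) and Alkbh5 (0.953), and Nos2 to Svep1 (0.968), Clu (0.945) and Iqsec1 (0.941), a likeness that rests mainly on the 2 tCD115- libraries. These values were not tested.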

How the data were processed

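Sequencing libraries were made with a stranded mRNA kit. The authors deposited read counts and FPKM per gene, and the submitters' processing notes name bcl2fastq, HISAT2 2.0.5, Bowtie2, BWA, StringTie 1.3.3b and DESeq2 with the mm10 build, while the role of each tool and the strand setting are not stated in those sources. The count columns of the 8 libraries entered the tests, and the deposited FPKM were used for levels between genes only. Another 12 columns of per-sample or group-mean values were not used, nor were the authors' own fold changes and p-values. Library totals and counting intervals are given with the results, and intervals and floors cover counting error only.

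Counts were filtered (filterByExpr), scaled by TMM and fitted over all 8 libraries with 4 group means by the quasi-likelihood test of edgeR 4.0.16 in R 4.3.3, with Benjamini-Hochberg adjustment over 13211 genes. The fit left 4 residual degrees of freedom. CPM use the same TMM factors. A call needed an adjusted p under 0.05 and a fold of at least 2, the thresholds of the study's methods. Alternatives were DESeq2 1.42.0, limma 3.58.1 (voom), other scalings and filters, a replicate block, the 4 libraries of a comparison alone, and each library left out. Of these steps, only the edgeR fit with its main settings was tested on simulated counts.

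The effector genes, 8 pathway lists and 9 marker lists (monocyte, neutrophil, eosinophil, basophil and mast cell, B cell, T and NK cell, erythroid, macrophage and dendritic cell) were chosen with earlier results of these data known. Named were, of each pathway list, up to 4 called genes of largest change with a mean of at least 1 CPM, or else the 2 most abundant, and, for each effector tested, the 3 genes most correlated with it. Likeness used log2(CPM + 0.1). Gene positions and promoter windows come from RefSeq, and strands and overlapping genes from GENCODE, all on GRCm38.p6.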

Additional observations from a re-analysis of the deposited data

How the results depend on the processing

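Over 17 alternatives, the count of effector genes called changed in 2 comparisons. Between tCD115- and tCD115+ it was 1 as reported and 0 with no filter, with a replicate block and with that block within host. It was also 0 with a filter of at least 10 counts in every library, which left Nos2 untested. Leaving out 1 library gave 0 to 1, with 0 without any of the 4 libraries compared, and the library left alone in its group is then assumed to vary like the other groups. Between tCD115- and nCD115- it was 0 as reported and 1 with limma-voom, where Nos2 had an adjusted p of 0.0178. DESeq2 gave Nos2 no adjusted p in that comparison. Fitted log2 values of the effector genes changed sign in the following cases only, none of them called. Il4ra between tCD115- and tCD115+ became 0.016 with DESeq2 and RLE scaling and 0.024 with the 4 libraries alone, and ran from -0.081 to 0.031 with 1 library left out, above 0 without replicate 1 of either group. Cd274 between nCD115- and nCD115+ ran from -0.096 to 0.087 with 1 library left out, above 0 without nCD115- replicate 2 or nCD115+ replicate 1. In the interaction, Il4ra ran from -0.014 to 0.099 with 1 library left out, below 0 without tCD115+ replicate 2. Arg2 became 0.014 with DESeq2 and 0.013 with RLE scaling, and ran from -0.58 to 0.45 with 1 library left out, above 0 without tCD115- replicate 1, tCD115+ replicate 1, nCD115- replicate 2 or nCD115+ replicate 1. Without nCD115+ replicate 2, no value of Nos2 could be given between groups without reads. The 4 libraries alone also left Il4ra (tCD115- against nCD115-) and Tgfb1 (tCD115- against tCD115+) without an adjusted p under 0.05. Scaling to library totals alone moved the all-gene median on the log2 scale by -0.14 and -0.11 between the subsets in EL4 TB and naive mice. It turned the split of calls between tCD115- and tCD115+ from 1105 higher and 525 lower to 1010 and 840, and Tgfb1 there from -0.41 to -0.55.

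Replicate numbers are shared by the groups but the labels do not say that they mark a pair, and deviations from the group means correlated by -0.10 to 0.08 between same-numbered libraries. With the replicate block, 0 effector genes were called between tCD115- and tCD115+, with Nos2 at an adjusted p of 0.0521, and 0.0686 with the block within host. The block within host also left Cd274 (0.118) and Il4ra (0.0501) above an adjusted p of 0.05 between tCD115+ and nCD115+.

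Calls over all tested genes ranged from 1130 to 2306 between tCD115- and tCD115+, 500 to 951 between nCD115- and nCD115+, 36 to 1059 between tCD115- and nCD115-, 41 to 489 between tCD115+ and nCD115+, and 0 to 173 in the interaction. Between tCD115- and nCD115- the count was 1059 without tCD115- replicate 2, and 36 both without nCD115- replicate 1 and with the 4 libraries alone, which also gave the highest counts between the naive subsets and between the CD115+ groups. Without tCD115- replicate 2, the checkpoint, other suppression and transcription factor lists, reported at 0 called between the CD115- groups, gave 1 each, and the interleukin 10 list gave 2 between the EL4 TB subsets. Depth limits Arg1 and Nos2, with at most 16 reads a library.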
